A study of Anguilla anguilla with 11 samples.

Results

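Transcripts of adrenergic and muscarinic receptors, of the kinases and arrestins that shut such receptors off, and of arrestin domain-containing proteins were examined in the rete mirabile, the countercurrent capillary organ that supplies the swimbladder of the European eel (Anguilla anguilla). The group held 66 of the 45974 transcripts of the deposited count table. They were chosen by their annotation, with all transcripts taken whose description named an adrenergic or muscarinic receptor, a G protein-coupled receptor kinase, a beta-adrenergic receptor kinase or an arrestin. Levels and stage differences in these libraries were known when this family was picked out, so stage differences are given below as a description. The 66 transcripts carried 28 gene names and comprised 7 alpha-1, 7 alpha-2 and 7 beta adrenergic receptor transcripts, 10 muscarinic receptor transcripts, 12 receptor kinase transcripts, 10 arrestin transcripts and 13 transcripts of arrestin domain-containing proteins.

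Noradrenaline and adrenaline act on alpha-1 receptors, which couple to phospholipase C and constrict vessels, on alpha-2 receptors, which inhibit adenylate cyclase, and on beta receptors, which stimulate it. Acetylcholine acts on muscarinic receptors, and both transmitters reach the swimbladder circulation of fishes through autonomic nerves. After activation, a receptor kinase phosphorylates the receptor and an arrestin binds it, which ends coupling to the G protein and starts internalization. Arrestin domain-containing proteins, or alpha-arrestins, are a related family that links membrane proteins to ubiquitin ligases.

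The study compared the rete of silver eels, the migrating stage, with that of yellow eels, the resident growth stage. RNA of 6 silver eels and 5 yellow eels was sequenced as 1 polyA-selected library per eel. All eels were wild animals caught in Lake Constance and held in freshwater for some days, and they were female by the study's methods. Eels of both stages were decerebrated and spinally pithed under anesthesia, with the gills irrigated with oxygenated water. The rete was then perfused through cannulas with heparinized saline until it was free of blood. No other treatment of either stage is named. Ages are not given in the sources used here, and the labels' protocol for RNA extraction mentions gas gland, a neighbouring tissue, although their tissue field and the study give the rete.

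Silver eels 4 to 6 and yellow eels 4 and 5 belong to the library set with titles beginning FG1907, and silver eels 1 to 3 and yellow eels 1 to 3 to the set FG1835. The labels do not say what the sets stand for. Total counts were 9360429 to 12438185 in silver eels and 10555968 to 12096239 in yellow eels. Values below are relative expression values, which are counts divided by a size factor per library (median of ratios), and since they are not divided by transcript length they are not compared between genes. The first principal component of all tested transcripts (46.8% of the variance) separated the sets, with FG1907 libraries at -121 to -11.4 and FG1835 libraries at 53.7 to 78.8, and silver eel 5 lay apart on the second component (13.1%) at -127. In edgeR, with the stage as a covariate, 9250 of 23981 tested transcripts, or 38.6%, differed between the sets at an adjusted p under 0.05, which bears on every pooled value. The labelled tissue was described by cell type markers. No gas gland marker was among them, so they cannot tell the rete from the gas gland. Of the endothelial markers, 12 of 14 transcripts had a mean above 50. Among these were claudin cld5 (g6920) with 14619 ± 4549 and von Willebrand factor vwf (g357) with 11505 ± 4527 (mean ± SD, n = 11). Markers of nerve and of Schwann cells were low, with 1 of 16 transcripts above 50. Means above 50 were also reached by 10 of 15 pericyte, 6 of 19 smooth muscle and 3 of 8 blood cell marker transcripts. Among the blood cell markers, the red cell anion exchanger b3at (g2522) had 1.38 ± 1.70.

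Of the 66 transcripts, 62 (93.9%) had at least 1 count in 1 library, against 86.0% of all transcripts, and 49 had at least 10 counts in all libraries together. A mean above 50 was reached by 24 transcripts (36.4%) of 15 names, against 32.8% of all transcripts. On either side of this limit stood ada2b (g5643) with 53.6 and arrd2 (g14505) with 46.7. The 24 comprised 2 alpha-1, 4 alpha-2, 0 beta, 1 muscarinic, 4 kinase, 4 arrestin and 9 arrestin domain-containing transcripts. No count in any library was recorded for both ada2c transcripts (g12877 and g15555), which encode the alpha-2C receptor, or for both arrc transcripts (g14399 and g1673), which encode cone arrestin. A count of 0 allows up to 3 counts per library, which is a relative expression value of 2.44 to 3.52, and this limit covers counting error only. For testing, 33 transcripts passed the filter on low counts and the other 33 did not, so counts of tested transcripts below do not describe all members.

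**Figure D1:**
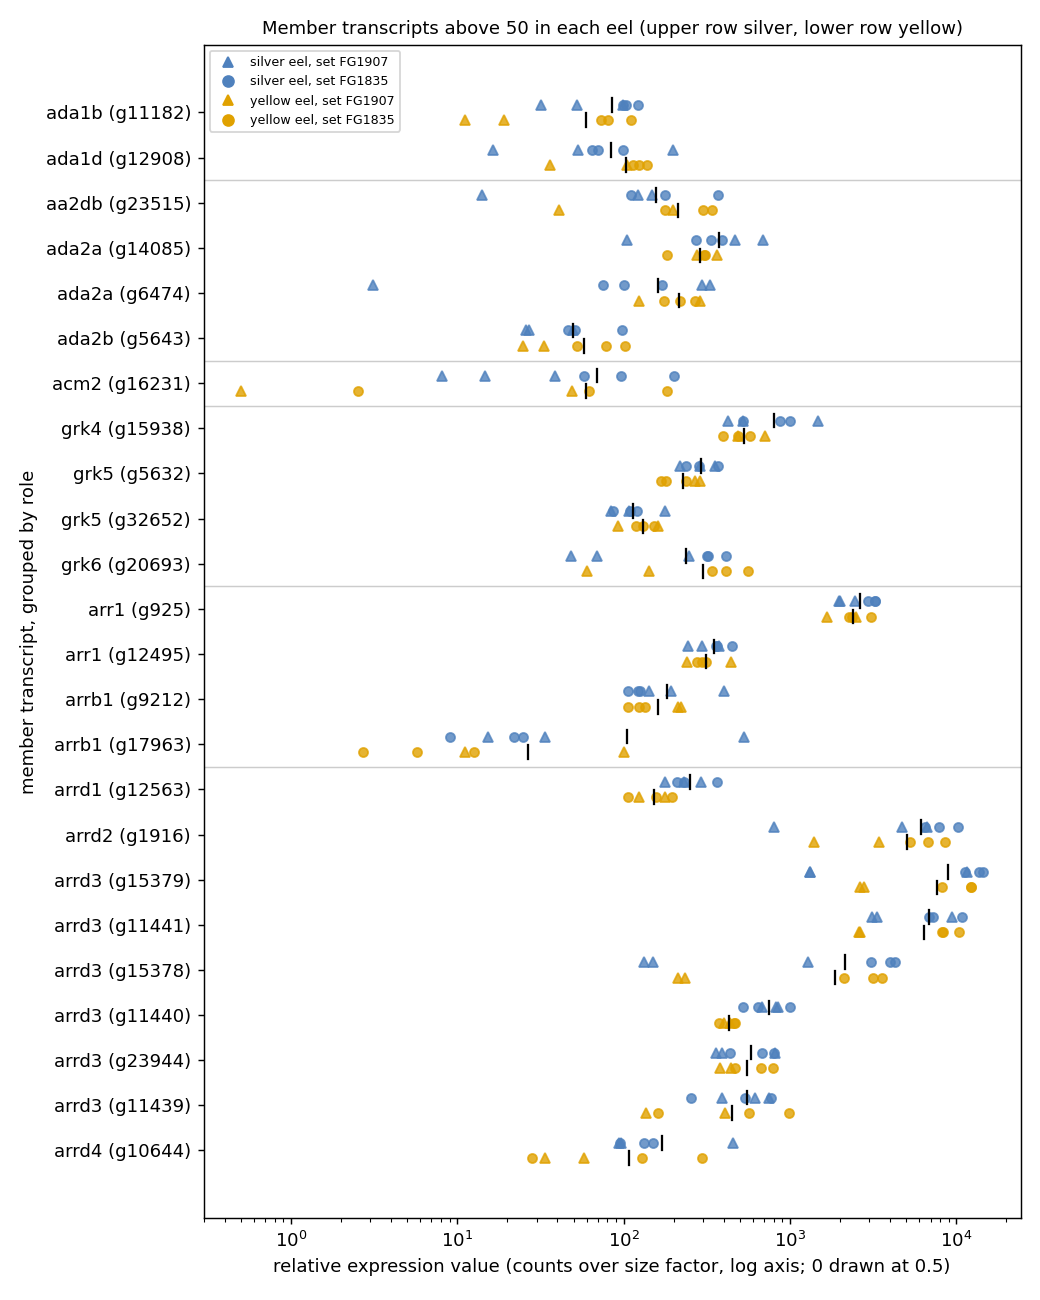
Relative expression values (log axis) of the 24 transcripts with a mean above 50, 1 point per eel, with silver eels in the upper and yellow eels in the lower row of each transcript, triangles for library set FG1907, circles for FG1835 and a bar at the mean of each stage. Silver and yellow points overlap in every row but that of arrd3 (g11440), while triangles lie left of all circles for grk6 and arrd3 (g15378).

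Among the receptors, alpha-2 transcripts included 4 with means above 50, alpha-1 transcripts 2 and muscarinic transcripts 1, and the highest mean of a beta receptor transcript was 12. Alpha-1 receptors mediate contraction of vascular smooth muscle in vertebrates. The alpha-1D transcript ada1d (g12908) had 70.0, 98.6, 64.8, 53.3, 199 and 16.4 in silver eels 1 to 6, against 139, 123, 115, 36.2 and 105 in yellow eels 1 to 5. Silver eel 5 held the highest and silver eel 6 the lowest value, so the silver eels spanned all of the yellow ones, and the log2 difference was -0.31 (SE 0.51). It was -0.79 without silver eel 5 and -0.09 without silver eel 6. Its sign differed between the sets, with 0.40 (SE 0.97) within FG1907 and -0.71 (SE 0.24) within FG1835.

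The alpha-1B transcript ada1b (g11182) had 99.0, 104, 122, 52.1, 99.1 and 31.7 in silver eels 1 to 6, against 80.5, 111, 73.6, 19.2 and 11.1 in yellow eels 1 to 5. Only silver eel 3 stood above all yellow eels, and the lowest values were those of yellow eels 4 and 5, both from set FG1907. Its log2 stage difference was 0.51 (SE 0.55) over all eels, 2.05 within FG1907 and 0.29 within FG1835. With the set in the model it was 0.96 (SE 0.40). Between the sets, ada1b (g11182) fell to a median of 31.7 (range 11.1 to 99.1) in FG1907 libraries, against 101 (73.6 to 122) in FG1835 libraries, with a log2 difference of -1.51 (SE 0.41, adjusted p = 0.0123). A further ada1b transcript (g26132) had 29.1 ± 14.3 in silver eels and 29.0 ± 15.5 in yellow eels, a log2 difference of -0.01 (SE 0.44). The third ada1b transcript (g38893) and the 3 ada1a transcripts of the alpha-1A receptor had means of 6.55 or less and were not tested.

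Alpha-2 receptors, which inhibit transmitter release from nerve endings and also occur on endothelium and smooth muscle, were represented above 50 by a pair of ada2a transcripts, 1 of aa2db and 1 of ada2b. The first alpha-2A transcript, ada2a (g14085), had 336, 273, 389, 466, 104 and 686 in silver eels 1 to 6, against 309, 306, 183, 364 and 277 in yellow eels 1 to 5. Silver eels 3, 4 and 6 stood above all yellow eels and silver eel 5 below them. Its log2 difference was 0.38 (SE 0.37). The other ada2a transcript (g6474) had 101, 74.8, 169, 295, 3.13 and 329 in silver eels 1 to 6, against 175, 218, 267, 287 and 123 in yellow eels 1 to 5. Here 3 silver eels lay below all yellow eels and 2 above them, and silver eel 5 was the lowest by far with 3 counts. The log2 difference of this transcript was -0.41 (SE 0.66) over all eels, -0.15 without silver eel 5 and -0.74 without silver eel 6. Within FG1907, which holds both eels, it was 0.02 (SE 1.2), and within FG1835 it was -0.94 (SE 0.32). The value of 3.13 in that library compares with 74.8 to 329 in the other 10 libraries, and for g14085 the value of 104 in silver eel 5 compares with 183 to 686.

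The fish alpha-2D transcript aa2db (g23515) ranged over 14.1 to 368 in silver eels and 40.7 to 341 in yellow eels, with a log2 difference of -0.45 (SE 0.61). For the alpha-2B transcript ada2b (g5643), silver eels had 51.0, 46.6, 98.4, 49.8, 26.1 and 27.0 and yellow eels 102, 52.3, 78.2, 24.9 and 33.4, with a log2 difference of -0.23 (SE 0.44). The stages overlapped for both, and the order of eels followed the library set more than the stage for ada2b. In FG1907 libraries ada2b fell to a median of 27.0 (range 24.9 to 49.8), against 65.2 (46.6 to 102) in FG1835 libraries, and the log2 difference was -1.15 (SE 0.32, adjusted p = 0.0145). For aa2db the set difference was -1.18 (SE 0.54, adjusted p = 0.102), which did not pass the threshold.

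All 7 beta receptor transcripts had at least 2 libraries with a count, yet their means were only 0.474 to 12. Beta receptors relax vascular smooth muscle in many vertebrates. The beta-3 transcript adrb3 (g12806) had 22.0, 4.33, 17.2, 8.11, 20.9 and 5.87 in silver eels 1 to 6, against 17.9, 11.8, 10.9, 5.65 and 7.42 in yellow eels 1 to 5, values that overlapped widely around a log2 difference of 0.28 (SE 0.50). The beta-1 transcript adrb1 (g16179) had 1.000, 1.08, 1.64, 0, 6.26 and 0 in silver eels 1 to 6, against 5.69, 11.8, 3.64, 14.7 and 1.85 in yellow eels 1 to 5. All silver eels but silver eel 5 stood below every yellow eel, at 50 counts in all libraries together. Silver eel 3 and yellow eel 5 both had 2 counts, so only their size factors set 1.64 below 1.85. Both values lie under the 2.44 to 3.52 that a count of 0 allows. The adrb1 transcript did not pass the filter on low counts. Without the filter edgeR gave a log2 difference of -2.08 (SE 0.85), which did not pass the adjusted threshold. The transcript adb4c (g34016), named after a beta-4C receptor, averaged 1.97 ± 2.85.

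Muscarinic receptors of the M2 and M4 types inhibit adenylate cyclase, whereas M3 and M5 couple to phospholipase C. The only muscarinic transcript above 50 was the M2 transcript acm2 (g16231), with 202, 96.5, 57.4, 8.11, 14.6 and 38.8 in silver eels 1 to 6, against 61.8, 2.53, 183, 0 and 49.1 in yellow eels 1 to 5. The stages overlapped, with no count in 1 yellow eel and 183 in another, and the log2 difference was 0.21 (SE 1.04). It turned to -0.49 without silver eel 1 and reached 1.26 without yellow eel 3. Between the sets the difference was -2.15 (SE 0.92, adjusted p = 0.0803).

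The M4 transcript acm4 (g9256) had 16.0, 13, 8.20, 6.95, 104 and 3.52 in silver eels 1 to 6, against 5.69, 28.7, 15.5, 3.39 and 11.1 in yellow eels 1 to 5. Its log2 stage difference was 0.97 (SE 0.84), and -0.45 without silver eel 5, which held the 104. The M3 transcripts acm3 (g5929 and g7175) averaged 8.53 and 5.52, and 58.2 in yellow eel 2 was the largest acm3 value. For the M5 receptor, acm5 (g1686) had counts in 1 library.

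The 12 kinase transcripts all had counts, and 4 of them, of grk4, grk5 and grk6, had means above 50. Kinases of this subfamily are bound to membranes without the help of G protein subunits. The grk4 transcript (g15938) had 867, 1000.3, 518, 426, 1469 and 525 in silver eels 1 to 6, against 575, 394, 485, 709 and 489.6 in yellow eels 1 to 5. Silver eels 1, 2 and 5 stood above all yellow eels, while the other 3 lay among them, and the log2 difference was 0.59 (SE 0.32). Within the sets it was 0.47 in FG1907 and 0.70 in FG1835, and it was 0.32 over all eels without silver eel 5, whose 1469 was the highest value.

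Of the 3 grk5 transcripts, g5632 ranged over 217 to 371 in silver eels and 167 to 286 in yellow eels, with 3 silver eels above every yellow eel and a log2 difference of 0.35 (SE 0.22). Of these 3, silver eel 4 at 286.18 barely passed yellow eel 4 at 286.12. It had 247 counts against 253, so only their size factors set it above. For g32652 the range was 84.5 to 177 in silver eels and 92.7 to 161 in yellow eels, with a log2 difference of -0.21 (SE 0.26), so the sign differed between these transcripts of 1 name. The remaining grk5 transcript (g3116) did not pass the filter and stood at 173 in silver eel 6 and 44.9 in silver eel 5, against 0 to 14.5 in the other 9 libraries.

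The grk6 transcript (g20693) had 69.5, 247, 48.2, 141 and 60.3 in the FG1907 libraries (silver eels 4 to 6 and yellow eels 4 and 5), against 413, 322, 315, 339, 559.7 and 410.0 in the FG1835 libraries (silver eels 1 to 3 and yellow eels 1 to 3). No library of FG1907 reached the lowest of FG1835, and grk6 fell by 1.78 on the log2 scale (SE 0.41, adjusted p = 0.0054) in FG1907, while its stage difference was -0.37 (SE 0.60). The arbk2 transcripts encode beta-adrenergic receptor kinase 2, which is drawn to the membrane by the beta and gamma subunits of G proteins. No transcript was named arbk1, the gene of the other kinase of this kind.

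Levels of the 4 arbk2 transcripts were low, with means of 22.1 (g9344), 13.6 (g9345), 9.41 (g19715) and 5.79 (g33873). In FG1907 libraries g9344 had 10.4, 18.8, 10.6, 11.3 and 14.8, against 43.0, 32.5, 23.0, 23.6, 23.6 and 31.8 in FG1835 libraries, in the same order of eels as above. The groups did not overlap, and the set difference was -1.16 (SE 0.30, adjusted p = 0.0106). For g19715 the values were 2.32, 1.04, 4.70, 6.79 and 2.78 in FG1907, against 12, 10.8, 11.5, 17.1, 11.8 and 22.7 in FG1835, again without overlap, and the set difference was -1.97 (SE 0.41, adjusted p = 0.0033). For g9345 they were 4.63, 14.6, 3.52, 6.79 and 10.2 in FG1907, against 18.0, 18.4, 20.5, 11.4, 27.8 and 13.6 in FG1835, with yellow eels 1 and 3 of FG1835 inside the FG1907 range and a set difference of -1.17 (SE 0.42, adjusted p = 0.0410). This call was lost in 9 of 11 fits that left out 1 eel, with adjusted p values up to 0.0955, and it held without silver eel 5 or yellow eel 1. Stage differences of these 3 were 0.12 (SE 0.44) for g9344, -0.79 (SE 0.63) for g19715 and -0.07 (SE 0.52) for g9345, with overlap of the stages in each. The 3 grk7 transcripts, named after the kinase of cone opsins, had means of 1.10 or less.

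Arrestins were represented above 50 by a pair of transcripts each of arr1 and arrb1. The name arr1 is that of an arrestin first described in red blood cells of trout, and arrb1 encodes beta-arrestin 1. The arr1 transcript g925 had 3264, 3245, 2926, 2452, 1985 and 1978 in silver eels 1 to 6, against 2258, 2359, 3088, 2502 and 1677 in yellow eels 1 to 5. Silver eels 1 and 2 stood above all yellow eels, the other 4 among them, and the log2 difference was 0.14 (SE 0.21). The ratio of its largest to its smallest value was 1.95 over all eels. In FG1907 libraries g925 fell to a median of 1985 (range 1677 to 2502), against 3007 (2258 to 3264) in FG1835 libraries, a log2 difference of -0.45 (SE 0.16, adjusted p = 0.0382). The call was lost in 7 of 11 fits that left out 1 eel, those without silver eels 1, 2, 3, 5 or 6 or yellow eels 3 or 5, with adjusted p values up to 0.12. The other arr1 transcript above 50 (g12495) had 348 ± 70.8 in silver eels and 314 ± 77.2 in yellow eels, with differences of 0.14 (SE 0.21) between stages and -0.12 (SE 0.19, adjusted p = 0.662) between sets. The tissue had been perfused before sampling. Of the 8 blood cell marker transcripts, 3 had means above 50. The leukocyte marker ptprc (g6670) had 998 ± 358, and the red cell marker b3at was near 0 as given above. The part of red cells and of other blood cells in the arr1 values was not tested.

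Beta-arrestin 1 went the other way between the sets. In FG1907 libraries arrb1 (g9212) had 192, 143, 403, 214 and 221 in silver eels 4 to 6 and yellow eels 4 and 5, against 125, 121, 106, 107, 124 and 135 in silver eels 1 to 3 and yellow eels 1 to 3 of FG1835. Every FG1907 library stood above every FG1835 library, silver eel 6 highest, and the set difference was 0.96 (SE 0.24, adjusted p = 0.0090). Its stage difference was 0.18 (SE 0.37), with 182 ± 112 in silver eels and 159.9 ± 53.3 in yellow eels.

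A second arrb1 transcript (g17963) had 22.0, 24.9, 9.02, 33.6, 527 and 15.3 in silver eels 1 to 6, against 5.69, 12.6, 2.73, 101 and 11.1 in yellow eels 1 to 5. Silver eel 5 and yellow eel 4, both of FG1907, stood far above the rest. The log2 stage difference of 2.05 (SE 1.2) was -0.33 without silver eel 5 and 3.70 without yellow eel 4. The set difference was 3.21 (SE 0.88, adjusted p = 0.0129), and 1.72 with an adjusted p of 0.0609 without silver eel 5, and the call was also lost without yellow eel 4 (adjusted p = 0.0673). The third arrb1 transcript (g38972) reached 270.2 in silver eel 5, against 0 to 11.7 in the other 10 libraries, and was not tested. Of the arrestins of photoreceptors, arrs (g4335), the rod arrestin, averaged 3.54 ± 4.24.

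Arrestin domain-containing proteins made up most of the counts of the family, which are not divided by length, with 0.24% of all counts in the table, against 0.0295% for arrestins and 0.0132% for the kinases. Of their 13 transcripts, 9 had means above 50, and 10 were tested. In mammalian cells the arrestin domain-containing protein 3 takes part in receptor sorting and ubiquitination, and protein 1 takes part in budding of vesicles from the plasma membrane. Only 1 of the 33 tested transcripts of the whole family, arrd3 (g11440), had every silver eel above every yellow eel, as 27 of all 23981 tested transcripts (0.113%) did, and 0 had every silver eel below every yellow eel, against 30 of all tested transcripts (0.125%).

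This arrd3 transcript (g11440) had 995, 526, 645, 846, 680.1 and 819.9 in silver eels 1 to 6, against 460.3, 377, 470.0, 439 and 403 in yellow eels 1 to 5. The lowest silver eel stood above the highest yellow eel. Mean values were 752 ± 167 in silver eels and 429.9 ± 39.2 in yellow eels (SD), and the log2 difference was 0.80 (SE 0.19). It was 0.91 within FG1907 and 0.72 within FG1835, 0.79 with the set in the model, and 0.70 to 0.88 when each eel was left out in turn. Between the sets this transcript did not pass the threshold, with a log2 difference of 0.03 (SE 0.18, adjusted p = 0.895).

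The arrd1 transcript above 50 (g12563) had 231, 363, 208, 229, 178 and 294 in silver eels 1 to 6, against 196, 158, 106, 178 and 123 in yellow eels 1 to 5. All silver eels but silver eel 5 stood above every yellow eel. Its log2 difference was 0.71 (SE 0.24), with 0.65 within FG1907, 0.78 within FG1835, 0.72 with the set in the model and 0.57 to 0.82 with each eel left out. Its set difference was -0.13 (SE 0.22, adjusted p = 0.675). Further arrd1 transcripts (g25071 and g29491) had means of 13.2 and 0.313 and were not tested.

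**Figure D2:**
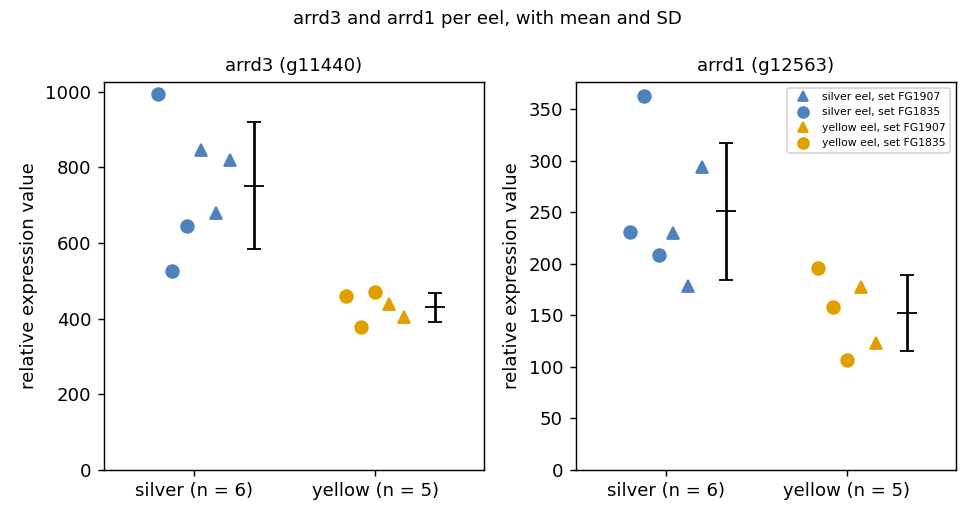
Relative expression values of arrd3 (g11440, left) and arrd1 (g12563, right), 1 point per eel with silver eels left of yellow eels, triangles for set FG1907 and circles for FG1835, and bars for the mean and SD of each stage. Silver eels spanned 526 to 995 and yellow eels 377 to 470.0 for arrd3, while for arrd1 silver eels spanned 178 to 363 and yellow eels 106 to 196, so that the lowest silver eel lies below the highest yellow eel.

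The other 5 arrd3 transcripts above 50 did not separate the stages. For g15379, silver eels 1 to 6 had 11304, 14538, 13708, 11547, 1318 and 1312, against 12334, 8175, 12312, 2623 and 2776 in yellow eels 1 to 5. For g11441, silver eels had 7247, 10834, 6869.9, 9452, 3121 and 3331 and yellow eels 8234, 8319.7, 10324, 2652 and 2589, and for g15378 silver eels had 3054, 4283, 4001, 1281, 150.2 and 133 and yellow eels 3146, 2099, 3597, 234 and 211. In all 3 the low values came from silver eels 5 and 6 and yellow eels 4 and 5, all of FG1907, while silver eel 4 of the same set stood with the FG1835 eels for g15379 and g11441. Stage differences were 0.21 (SE 0.66) for g15379, 0.06 (SE 0.44) for g11441 and 0.19 (SE 0.93) for g15378. In the same order, FG1907 libraries fell below FG1835 libraries by log2 differences of -1.73 (SE 0.51, adjusted p = 0.0183), -1.14 (SE 0.33, adjusted p = 0.0175) and -3.25 (SE 0.56, adjusted p = 0.0012). Every FG1907 library lay below every FG1835 library for g15378 alone of these. Without yellow eel 4 or yellow eel 5 the adjusted p was 0.0550 to 0.0576 for g15379 and 0.0692 to 0.0710 for g11441. Both calls were thus lost in these fits, while g15378 kept its call whichever eel was left out. Transcripts g23944 and g11439 had 567 ± 185 and 507 ± 268 over all eels, with stage differences of 0.07 (SE 0.29) and 0.28 (SE 0.47) and set differences short of the threshold.

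Transcripts g15378 and g15379 carry consecutive identifiers, and the ratio of g15378 to g15379 was 0.0762 to 0.114 (median 0.101) in FG1907 libraries, against 0.255 to 0.295 (median 0.281) in FG1835 libraries. The ratio of silver eel 4 was 0.111, within the FG1907 range although its level of g15379 was 11547. Silver eels spanned 0.101 to 0.295 and yellow eels 0.0762 to 0.292, so the ratio did not separate the stages. This ratio was picked after its values had been seen and is a description of these libraries. Transcripts g11439, g11440 and g11441 carry consecutive identifiers too. The ratio of g11440 to g11441 was 0.0485 to 0.246 in silver eels and 0.0453 to 0.165 in yellow eels, so it did not separate the stages. Reads of near-identical copies can be split among them in counting, so the level of each arrd3 transcript is uncertain where sequences are alike. Whether consecutive identifiers, those with g11440 included, are parts of 1 gene was not tested.

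**Figure D3:**
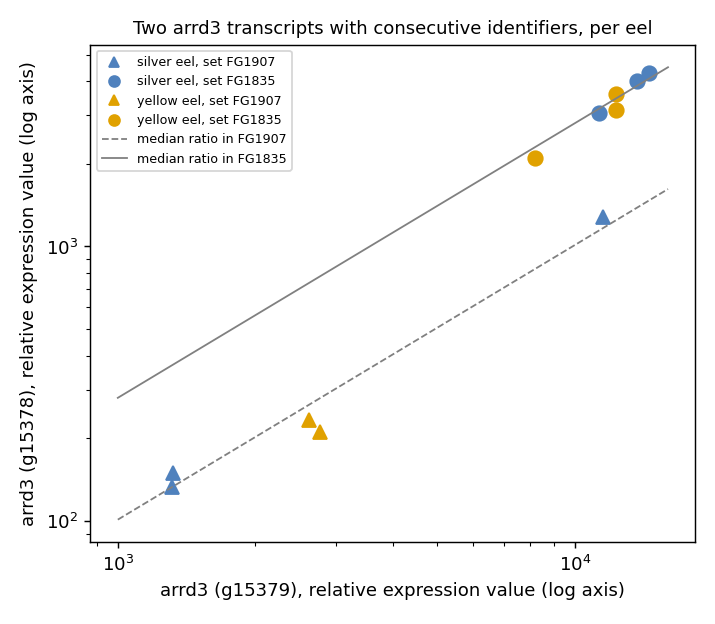
Relative expression value of arrd3 g15378 (vertical, log axis) against that of arrd3 g15379 (horizontal, log axis), 1 point per eel, blue for silver and yellow for yellow eels, triangles for set FG1907 and circles for FG1835, with lines at the median ratio of each set. All 5 FG1907 libraries lie near the line of 0.101, also silver eel 4, whose levels are higher than those of the other FG1907 libraries, and all 6 FG1835 libraries lie near the line of 0.281.

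The arrd2 transcript above 50 (g1916) had 7851, 10287, 6487, 4745, 6655 and 799.9 in silver eels 1 to 6, against 5291, 8552, 6739, 1391 and 3430.3 in yellow eels 1 to 5. Silver eel 6 and yellow eel 4 were lowest, and silver eel 2 was highest. Its stage difference was 0.26 (SE 0.54) and its set difference -1.23 (SE 0.44, adjusted p = 0.0442), with lower values in FG1907. That set call was lost in 9 of 11 fits that left out 1 eel, with adjusted p values up to 0.122, and held without silver eel 5 or 6. The arrd4 transcript (g10644) had 94.0 to 458 in silver eels, of which silver eel 4 gave the highest value, and 28.2 to 294 in yellow eels. Its log2 stage difference was 0.63 (SE 0.63) over all eels, 2.25 within FG1907, -0.27 within FG1835 and 0.05 without silver eel 4.

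Over the family, 0 of the 33 tested transcripts differed between silver and yellow eels in edgeR at an adjusted p under 0.05, as did 0 of all 23981 (0%). At an unadjusted p under 0.01 there was 1, arrd3 (g11440), against 0.413% of all, and at an unadjusted p under 0.05 there were 2, with arrd1 (g12563) added, against 2.15%. At an unadjusted p under 0.05 there were 4 of 30 members tested within FG1907 alone (2.78% of all) and 7 of 33 within FG1835 alone (7.30%). The 4 within FG1907 included grk5 (g3116), which did not pass the filter over all eels and was highest in silver eels 5 and 6. Without the filter there were 9 of 62 (3.37%), of which 7 had not passed the filter. Transcript arrd3 (g11440) was under 0.05 in each of these fits. DESeq2 called 0 of the family and 21 of all (0.0876%) at an adjusted p under 0.05, with 2 of the family at an unadjusted p under 0.01 against 0.863% of all, and limma called 0 of both (0%). With the library set as a term edgeR again called 0 of the family and 0 of all (0%), with 2 of the family at an unadjusted p under 0.01 (0.817% of all) and 3 under 0.05 (4.06%), the third being ada1b (g11182). The interaction of stage and set called 0 of the family and 0 of all (0%), with 1 of the family at an unadjusted p under 0.05, ada1b (g11182), against 4.94% of all.

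Stage differences were positive, meaning higher in silver eels, for 23 of the 33, against 50.8% of all tested transcripts, with a median of 0.18 in the family and 0.0046 over all. All 10 arrestin domain-containing transcripts and all 4 arrestin transcripts had positive differences, with medians of 0.23 and 0.16, as did 2 of 3 beta, 2 of 2 muscarinic, 1 of 4 alpha-2, 1 of 3 alpha-1 and 3 of 7 kinase transcripts. Many of these arrestin and arrestin domain-containing signs depended on 1 eel. With 1 eel left out, differences were no longer positive for arrd2 (g14505), arrd3 (g15379, g11441, g15378 and g23944) and arrb1 (g9212 and g17963), with -0.33 as the lowest. In limma arrd3 (g15379) had -0.06. With the set as a term 25 of 33 were positive (53.9% of all), among them 2 of 3 alpha-1 and 4 of 7 kinase transcripts. Within FG1907 alone 24 of 30 were positive, against 53.8% of all. The 30 included grk5 (g3116) and arrd1 (g25071), both positive, which did not pass the filter over all eels. Within FG1835 alone 18 of 33 were positive, against 50.2% of all, where 4 of the 10 arrestin domain-containing transcripts were negative (arrd3 g11441, g23944 and g11439, and arrd4). Of the 4 arrestin transcripts 1 was negative within each set, arr1 (g12495) in FG1907 and arrb1 (g9212) in FG1835. Of the 11 arrestin domain-containing transcripts in FG1907, 1 was negative, arrd2 (g14505). Members share names and libraries and are not independent, and these signs carry no test.

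**Figure D4:**
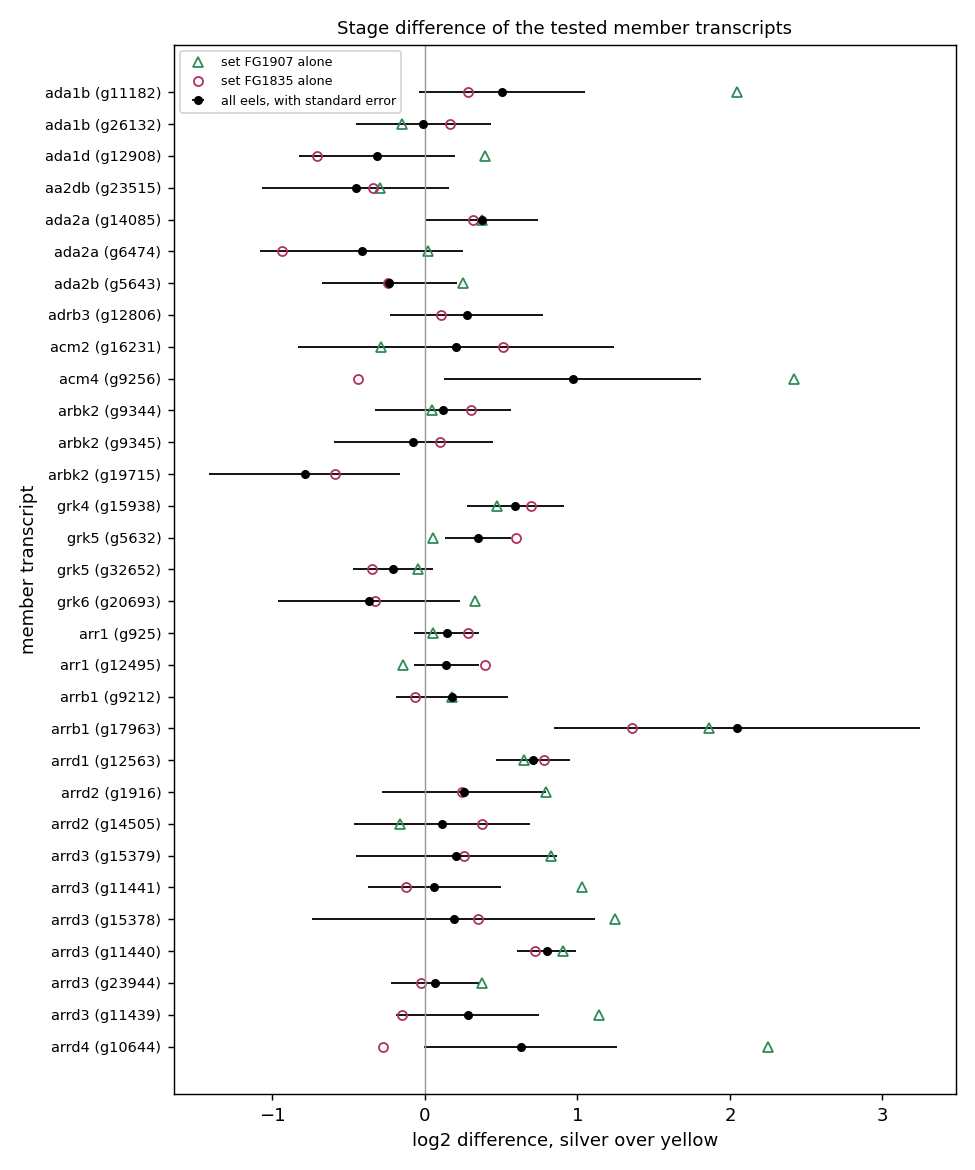
Log2 difference of silver over yellow eels for 31 of the 33 tested transcripts, with black points and standard errors from all 11 libraries, green triangles from set FG1907 alone (28 transcripts) and red circles from FG1835 alone. Points for arrd3 (g11440) and arrd1 (g12563) lie close together in both sets, whereas triangles and circles are far apart for ada1b (g11182), acm4 and arrd4.

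Between the library sets, 14 of the 33 tested transcripts (42.4%) passed an adjusted p of 0.05 in edgeR, near the 38.6% of all tested transcripts. They were lower in FG1907 in 12 cases, against 19.0% of all, and higher in 2, against 19.5% of all. The median log2 set difference was -0.45 in the family and 0.03 over all tested transcripts. Every FG1907 library lay below every FG1835 library for 5 of the 33, against 11.1% of all, and above it for 1, against 10%. The 5 included arbk2 (g9344 and g19715), grk6 (g20693) and arrd3 (g15378), and the 1 was arrb1 (g9212). Of the 14 differences, 8 kept their call under every alternative and 6 lost it in at least 1. Besides the losses named above for single eels, arbk2 (g9345) and arr1 (g925) lost theirs without the filter, arrb1 (g17963) in limma and arrd2 (g1916) without the stage term. The methods of the study name a paired-end and a single-read sequencer, and which library ran on which is not given in the sources used here, so whatever sets the library sets apart cannot be told apart from the eels in them.

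**Figure D5:**
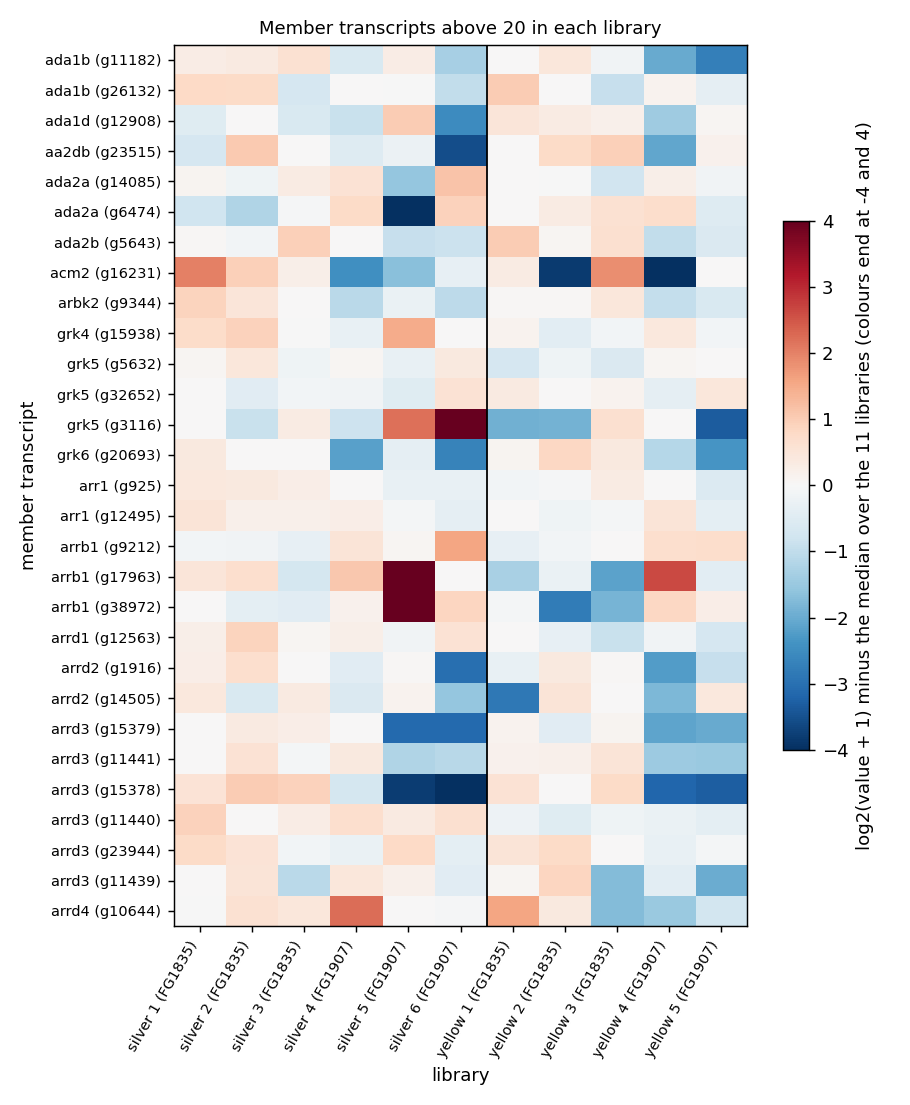
Log2(relative expression value + 1) of the 29 transcripts with a mean above 20 in each library, minus the median over the 11 libraries, with silver eels left of yellow eels and the library set beside each name. Blue cells gather in the FG1907 columns for grk6, arrd2 (g1916) and 3 arrd3 transcripts. Exceptions, with values above the row median, are silver eel 5 for arrd2 (g1916) and silver eel 4 for arrd3 (g15379 and g11441). The silver eel 5 column holds the strongest colours for arrb1 (g17963 and g38972, red) and ada2a (g6474, blue).

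Of the 29 transcripts with a mean above 20, silver eel 5 held the highest value of 5 and the lowest of 3, silver eel 6 the highest of 5 and the lowest of 8, and silver eel 2 the highest of 7. In silver eel 5 the summed pericyte markers reached 53198, against 7617 to 27559.5 in yellow eels, and 48165 of this sum was rgs5 (g2442), a regulator of G protein signaling. The summed endothelial markers were lowest in this library with 28999, against 35578 to 48523 in yellow eels, and the nerve and Schwann cell markers highest with 265, against 95.5 to 164 in yellow eels. In RNA of whole tissue, fewer cells of a type and less RNA per cell cannot be told apart, and the part of these cells in the ada2a, acm4, arrb1 and grk4 values of silver eel 5 was not tested. Of the pericyte markers, 8 of 12 tested transcripts were lower in FG1907 and 0 higher, and of the endothelial markers 5 of 12 were lower and 2 higher. The summed pericyte level spanned 7617 to 53198 in FG1907 and 17236 to 27559.5 in FG1835. Of the smooth muscle markers, 4 of 9 tested were lower in FG1907 and 0 higher, with a summed level of 36714 to 94812 in FG1907 and 60805 to 83325 in FG1835. Shares called were 66.7%, 58.3% and 44.4% in this order. Of all tested transcripts, 38.6% were called, 19.0% lower and 19.5% higher. The part of these lists in the lower receptor, kinase and arrd3 values of FG1907 was not tested either.

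The pathways downstream of these receptors were described from lists of gene names. Of all tested transcripts, 0% differed between silver and yellow eels in edgeR and in limma at an adjusted p under 0.05, and 0.0876% in DESeq2. Of the transcripts of G protein subunits, adenylate cyclases, protein kinase subunits, phosphodiesterases and phospholipase C beta, 0 did so with any of the tools. At an unadjusted p under 0.05 there was 1 of them in edgeR, the inhibitory alpha subunit gnai1 (g25293), with a log2 difference of -0.35 (SE 0.16), out of 46, 19, 12, 18 and 8 tested and against 2.15% of all. With the set as a term there were 1 G protein subunit, 1 phosphodiesterase and 2 phospholipase C beta transcripts under this limit, against 4.06% of all. Of 65 transcripts of heterotrimeric G protein subunits, 46 were tested, with 22 positive and 24 negative differences and a median log2 difference of -0.02. Other tested gnai1 transcripts had stage differences of either sign, from -0.34 (SE 0.44) for g32427 to 0.27 (SE 0.36) for g21999, whose mean was 1041. The inhibitory alpha subunits gnai2 (g6083 and g57) had 1167 ± 244 and 1074 ± 288, and the beta subunit gbb1 (g5202) 1571 ± 223. Adenylate cyclases, which make cyclic AMP, had 6 positive and 13 negative differences among 19 tested, and adcy7 (g24310) had 1665 ± 830.1 and adcy3 (g2169) 449.6 ± 99.8.

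Subunits of cyclic AMP-dependent protein kinase had 6 positive and 6 negative differences among 12 tested, with kap0 (g1164), a regulatory subunit, at 1953 ± 541 and kapca (g13115), a catalytic subunit, at 1699.8 ± 225. Phosphodiesterases that break down cyclic AMP had 5 positive and 13 negative differences among 18 tested, with pde4b (g3838) at 2499 ± 1675. For phospholipase C beta, 7 of 8 tested differences were positive, with a median log2 difference of 0.40, and plcb4 (g17566) had 481 ± 256.

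Between the library sets, where 38.6% of all tested transcripts passed, 12 of 46 G protein subunit transcripts were lower in FG1907 and 2 higher, 7 of 19 adenylate cyclases lower and 2 higher, 4 of 12 protein kinase subunits lower and 2 higher, 7 of 18 phosphodiesterases lower and 0 higher, and 5 of 8 phospholipase C beta transcripts lower and 0 higher. Shares called were 30.4%, 47.4%, 50%, 38.9% and 62.5% in this order. The phosphodiesterase pde4b (g3838) fell to a mean of 894 in FG1907 libraries, against 3837 in FG1835 libraries, a log2 difference of -2.22 (SE 0.19, adjusted p = 6.04e-05). Its stage difference was 0.44 (SE 0.61), and 0.73 (SE 0.18, adjusted p = 0.836 in edgeR) with the set as a term. Another pde4b transcript (g2453) did not share this fall, with means of 1308 in FG1907 and 1253 in FG1835 libraries. The log2 set difference of g2453 was 0.02 (SE 0.22, adjusted p = 0.943 in edgeR), and its stage difference with the set as a term was 0.16 (SE 0.22).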

How the data were processed

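Counts per transcript of 11 libraries were used as the authors deposited them. By the methods and the submitters' processing notes, TopHat2 2.0.13 placed the reads of TruSeq Stranded mRNA libraries on a draft eel genome, SAMtools 1.2 filtered out secondary alignments, and HTSeq 0.6.1p1 counted fragments per predicted gene, called transcripts here. Its strand setting is not given in the sources used here. The deposited base mean is a signal, the mean of counts over size factors, and the values computed here deviate from it by a relative 0.000107 at most. Fold changes and p-values of the authors' DESeq comparison stand in the same table and were not used. The column FG1935_03 was read as library FG1835_03, yellow eel 3. Names are those of the table, and 0 of its identifiers matched the RefSeq gene table at hand.

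Stages were compared with edgeR 4.0.16 in R 4.3.3 (TMM, filterByExpr by stage, quasi-likelihood test, silver against yellow), and library sets with the stage as a covariate. Adjustment was Benjamini-Hochberg over all 23981 tested transcripts at a threshold of 0.05. The study's limits, an unadjusted p under 0.01 and a mean above 50, were counted as well. Alternatives were median-of-ratios scaling, no filter, DESeq2 1.42.0, limma 3.58.1 (voom), the set as a term, each set alone, no stage term, and each library left out. The main edgeR fits of stage and of library set were run on simulated counts with known changes, and the alternatives were not. The counts simulated for the stage fit held no library set difference, unlike these libraries. That run therefore cannot show how the stage fit behaves on these data. Tables and plots were made with Python 3.11.15, numpy 2.4.6, pandas 2.3.3 and matplotlib 3.10.9. Members, lists of pathways and cell markers, and tests were chosen with earlier results of these data known. Named in the text are members above 50, the highest of each name below that, and the arrd3, ada2a and arbk2 transcripts. Values of every library stand for the highest member of each role, for members past the adjusted threshold and for members above 50 with an unadjusted stage p under 0.05. The transcripts of 1 gene name of the family are not reported here.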

Additional observations from a re-analysis of the deposited data

Results flagged for a closer look

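In the 24 transcripts with a mean above 50, the highest and lowest eel of each stage were set against the rest of that stage by Dixon's criterion. Of the 48 groups 5 had an eel standing apart, where chance gives about 1 in 20 for independent groups of like samples. Each stage here holds both library sets and the transcripts share the same eels, so 5 cannot be read against that share. The ada2b transcript (g5643) of silver eel 3 stood at 98.4, with the next silver eel at 51.0. The arrb1 transcript g9212 of silver eel 6 stood at 403, with the next silver eel at 192. The arrb1 transcript g17963 stood apart in both stages, with 527 in silver eel 5 against 33.6 in the next silver eel and 101 in yellow eel 4 against 12.6 in the next yellow eel. The arrd4 transcript (g10644) of silver eel 4 stood at 458, with the next silver eel at 149.6. All of these eels but silver eel 3 belong to set FG1907.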

How the results depend on the processing

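No paired analysis was possible because no library number occurs in both stages of a library set, so the numbers only name eels. Transcripts at an unadjusted p under 0.01 between the stages numbered 99 in edgeR, 229 without the filter, 207 in DESeq2, 196 with the set as a term, 448 in FG1835 alone and 377 without silver eel 5 with the set as a term, an alternative chosen after seeing the data. At the adjusted threshold there were 0 in edgeR, 21 in DESeq2, 2 without silver eel 5 with the set as a term, and 0 to 1 with each eel left out. Of the family, 1 transcript stood under 0.01 in edgeR, 2 in DESeq2, 2 with the set as a term, 2 without silver eel 5 with the set as a term, 0 in FG1835 alone, 0 in FG1907 alone, and 1 to 2 with each eel left out. Between the sets, 14 members were called, 9 to 14 with each eel left out (9 without yellow eel 4), with a median log2 difference of -1.2 among the 14. Over all 33 tested members the median was -0.45, or -0.844 to -0.389 (-0.844 without silver eel 5). The 6 set calls lost at least once were those of arbk2 (g9345), arr1 (g925), arrb1 (g17963), arrd2 (g1916) and arrd3 (g15379 and g11441), none reversed, and the cause was not tested. At totals of 9360429 to 12438185 counts per library, 33 of 66 members did not pass the filter on low counts, among them most beta and muscarinic receptor transcripts. Without the filter 62 were fitted and 9 stood at an unadjusted p under 0.05 (2 in edgeR with the filter), of which 7 had not passed it, and 0 passed the adjusted threshold.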

Other observations

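Nicotinic receptor subunits and the genes that make, carry and break down the transmitters were described beside the receptors. Of 41 nicotinic subunit transcripts, 4 had means above 50, among them acha (g11067), a subunit of the muscle type, with 1027 ± 151, acha4 (g306) with 348 ± 31.5 and acha7 (g18016) with 302 ± 168 (SD, n = 11). Of the 7 tested, 0 differed between silver and yellow eels in edgeR at an adjusted p under 0.05 (0% of all). At an unadjusted p under 0.05 there were 0 as well, against 2.15% of all.

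Among genes of transmitter synthesis, tyrosine hydroxylase ty3h (g13628) had 3.38 ± 6.03, dopamine beta-hydroxylase dopo (g7271) 6.85 ± 3.27, and choline acetyltransferase clat (g1648) no count. Among genes of uptake and breakdown, the noradrenaline transporter sc6a2 had 1831 ± 1680.1 (g16045) and 390.0 ± 78.2 (g6606), monoamine oxidase aof (g18092) 624 ± 235 and catechol O-methyltransferase comt (g18456) 473 ± 193. In silver eel 5 sc6a2 (g16045) stood at 6458. The vesicular transporter vmat2 (g16435) had 36.8 ± 49.9 in silver eels and 127 ± 104 in yellow eels, with a log2 difference of -1.75 (SE 0.94). Of 12 tested transcripts of this list, 0 differed between the stages in edgeR at an adjusted p under 0.05 (0% of all). At an unadjusted p under 0.05 there were 0 in edgeR (2.15% of all), 1 in DESeq2 (2.85%) and 1 in limma (1.96%). Between the sets 1 of the 12 was higher and 2 were lower in FG1907 than in FG1835, or 25%, against 38.6% of all tested transcripts.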
